A study of Mus musculus with 20 samples.

Results

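Heparan sulfate is made by enzymes of the Golgi apparatus on a small set of core proteins, and 10 genes of this system were followed here across 5 groups of mouse cells. They are the sulfotransferase genes Hs3st1, Hs6st1, Hs2st1 and Ndst1, the chain polymerase gene Ext1, the glypican genes Gpc3 and Gpc4, and the syndecan genes Sdc1, Sdc2 and Sdc4. Of these 10 genes 9 were measured, by 13 probes, among 16593 genes on the arrays. Ndst1, which encodes an enzyme that removes acetyl groups from the growing chain and adds N-sulfate, was not analysed here. The genes were selected with earlier results of these same arrays in view, among them the high Hs3st1 signal in the induced pluripotent cells. Their values are therefore given as a description, with standard errors and the overlap of arrays, and without p-values.

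The series measured total RNA on Illumina bead arrays in 20 samples, 4 arrays in each of 5 titled groups. The group sFB-protein-iPS was labelled as induced pluripotent stem (iPS) cells, somatic cells brought to a state like that of embryonic stem (ES) cells. The groups E14-mES, GFPoct4 and C57-mES stand for ES cells, which renew themselves and derive from the early embryo. The title of GFPoct4 does not say this, and its place rests on the source and cell type fields. FVB-sFB was taken from its title as the somatic group of a study on skin fibroblasts, while its source and cell type fields call it embryonic stem cells as well. The title of the iPS group holds the words sFB and protein, which point to the starting cells and to reprogramming by protein, and the labels say no more of either. They give no agent, dose, age or passage for any group, and they do not say whether the 4 arrays of a group came from separate cultures, so the errors speak only for the spread between arrays. In such bulk samples fewer cells of a type and less RNA per cell cannot be told apart. The titles FVB-sFB and C57-mES also begin with what read as names of mouse strains. Mouse strain may therefore differ along with group, both for C57-mES beside other ES lines and for FVB-sFB beside any group. Its part in the differences below was not tested.

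Heparan sulfate is a long sugar chain that is attached to a serine of a core protein through a short linker, extended by the Ext1 and Ext2 proteins as alternating glucuronic acid and N-acetylglucosamine, and then modified by N-sulfation, epimerization and O-sulfation. Glypicans carry the chains on the outer face of the cell membrane through a lipid anchor, whereas syndecans cross the membrane. The sulfate pattern helps decide which growth factors and morphogens the chain binds. In mouse ES cells the chain is known to be needed for signalling by fibroblast growth factors and for leaving the self-renewing state.

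Markers of cell type set the frame for these values. All 10 genes of a pluripotency list were above background on every array of the iPS group and of the 3 ES lines, where background is, on each array, the 95th percentile of the probes for olfactory and vomeronasal receptors. In FVB-sFB 6 of these 10 were above background on no array, Nanog and Cdh1 among them, and 9 of 10 fibroblast genes were above background on every array. The summed intensity of the fibroblast list was 1164 to 1252 on the iPS arrays, 1199 to 1490 in E14-mES, 4958 to 5426 in GFPoct4 and 1604 to 1819 in C57-mES, against 40490 to 47587 in FVB-sFB. A list of 10 primitive endoderm genes, which mark the early extraembryonic lineage, summed to 21852 to 22446 in the iPS group, 7847 to 8056 in E14-mES, 10143 to 11852 in GFPoct4, 7151 to 7734 in C57-mES and 41913 to 45751 in FVB-sFB, where Sparc makes up most of the sum. All 10 of its genes were above background on every iPS array, against 7 in E14-mES, 8 in GFPoct4, 8 to 9 in C57-mES and 5 to 7 in FVB-sFB. Of the 10, 7 passed limma's test (adjusted p under 0.05 and at least 2-fold) as higher in the iPS group than in the mean of the ES lines. In that comparison 3.26% of all genes passed in either direction. The list was chosen with earlier results of these arrays known, so nothing is read from this count. The macrophage list summed to 2867 to 3133 in FVB-sFB and to at most 509.6 elsewhere, with Ptprc, Adgre1, Itgam and Fcgr1 above background on no array of any group, and 5 or 6 of 8 keratinocyte genes were above background on no array of a given group. Of 8 endothelial genes 2 or 3 were above background on no array of a given group, and their sum was 4290 to 6201 on the pluripotent arrays, against 1223 to 1572 in FVB-sFB. The median raw intensity was 94.4 to 101.1 on the iPS arrays, below the 104 to 179 of all other arrays. The part of these differences in the values that follow was not tested.

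The sequences around the starts of 5 of the genes are shown because these genes set the groups apart in different ways: Hs3st1 was highest in the iPS group, Hs6st1 and Sdc4 divided C57-mES from the other 2 ES lines, and Gpc3 and Gpc4, which are neighbours on chromosome X with 0 protein-coding genes between them, differed in opposite directions between the pluripotent cells and FVB-sFB. They are the 250 bases before and 50 bases after the start of each gene in RefSeq (build GRCm38.p6), read 5′ to 3′ on the strand of the gene, and 7 of the 10 genes had such an entry. Capitals mark matches to 4 short motifs searched on both strands.
Hs3st1, chr5:39644582-39644881, minus strand: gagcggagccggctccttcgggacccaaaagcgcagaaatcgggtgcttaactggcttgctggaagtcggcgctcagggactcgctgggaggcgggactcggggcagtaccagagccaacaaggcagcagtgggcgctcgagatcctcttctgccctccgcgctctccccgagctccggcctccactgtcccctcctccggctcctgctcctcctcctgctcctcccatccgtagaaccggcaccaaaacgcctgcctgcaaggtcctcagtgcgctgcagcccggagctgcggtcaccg
Hs6st1, chr1:36068150-36068449, plus strand: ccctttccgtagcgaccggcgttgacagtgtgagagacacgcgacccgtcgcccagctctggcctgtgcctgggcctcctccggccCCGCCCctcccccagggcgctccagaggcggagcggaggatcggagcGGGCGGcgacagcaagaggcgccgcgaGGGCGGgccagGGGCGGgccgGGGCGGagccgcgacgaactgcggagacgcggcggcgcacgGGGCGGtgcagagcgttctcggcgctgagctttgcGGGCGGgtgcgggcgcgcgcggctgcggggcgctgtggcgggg
Sdc4, chr2:164443139-164443438, minus strand: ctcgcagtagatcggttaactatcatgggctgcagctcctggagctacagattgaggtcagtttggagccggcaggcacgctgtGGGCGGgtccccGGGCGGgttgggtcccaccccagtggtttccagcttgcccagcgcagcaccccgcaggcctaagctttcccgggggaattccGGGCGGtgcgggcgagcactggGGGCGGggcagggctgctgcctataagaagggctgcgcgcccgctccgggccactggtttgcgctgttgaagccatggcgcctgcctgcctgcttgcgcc
Gpc3, chrX:52613925-52614224, minus strand: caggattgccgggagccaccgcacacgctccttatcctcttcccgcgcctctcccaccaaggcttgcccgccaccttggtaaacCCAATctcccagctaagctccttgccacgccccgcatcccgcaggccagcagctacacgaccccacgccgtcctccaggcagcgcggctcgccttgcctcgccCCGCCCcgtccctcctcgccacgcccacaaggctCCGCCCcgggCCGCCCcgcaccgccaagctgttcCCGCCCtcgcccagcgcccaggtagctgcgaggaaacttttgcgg
Gpc4, chrX:52164874-52165173, minus strand: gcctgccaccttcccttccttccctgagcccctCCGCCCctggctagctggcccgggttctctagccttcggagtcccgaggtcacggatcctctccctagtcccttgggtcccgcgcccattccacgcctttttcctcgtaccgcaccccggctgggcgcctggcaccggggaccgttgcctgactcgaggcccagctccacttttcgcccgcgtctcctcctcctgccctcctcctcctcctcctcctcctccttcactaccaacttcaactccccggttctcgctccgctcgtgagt
The motifs were the GC box GGGCGG, the CCAAT box CCAAT, the TATA box TATAAA and the GATA motif AGATAA. Among 32851 promoters of the same length 35.7% held the GC box, 37.4% the CCAAT box, 13.6% the TATA box and 11.2% the GATA motif. Hs6st1 held 7 GC boxes, Sdc4 and Gpc3 held 4 each, Gpc4 held 1, and Hs3st1 held none of the 4 motifs. Gpc3 also held 1 CCAAT box, and none of the 7 members with an entry held the TATA box or the GATA motif. The share of G and C was 66.3% to 78.0% over the 7 entries, against a median of 52.7% over all promoters. These are matches of letters and not measured binding sites.

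Values below are log2 intensities after background correction and quantile normalization, so that a difference of 1 is a 2-fold change, and differences are given with the standard error (SE) of a linear model over all 20 arrays (4 arrays in each group, 12 in the ES mean). Levels of different genes come from different probes and were not set against each other. In the comparison of sFB-protein-iPS with FVB-sFB, 22.9% of all 16593 genes passed an adjusted p under 0.05 and a 2-fold change in limma's test, and 7 of the 9 members were past the same limits, 3 higher and 4 lower, or 2 higher and 5 lower on the deposited values without normalization. For the 3 ES lines together, set against FVB-sFB, the share was 22.6% of all genes, and 7 of 9 members were past it, 1 higher and 6 lower. Between sFB-protein-iPS and the mean of the ES lines it was 3.26% of all genes and 1 member, Hs3st1. E14-mES against C57-mES gave 7.19% of all genes and 3 members, GFPoct4 against C57-mES gave 7.69% and 2 members, and E14-mES against GFPoct4 gave 1.9% and 1 member, each of them lower. The members were chosen on these arrays, and nothing is read from their counts. The median log2 difference over the 9 members was -0.83 for the iPS group and -1.44 for the ES lines, both against FVB-sFB, beside 0.03 and 0.01 over all genes. These comparisons share the FVB-sFB arrays.

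**Figure D1:**
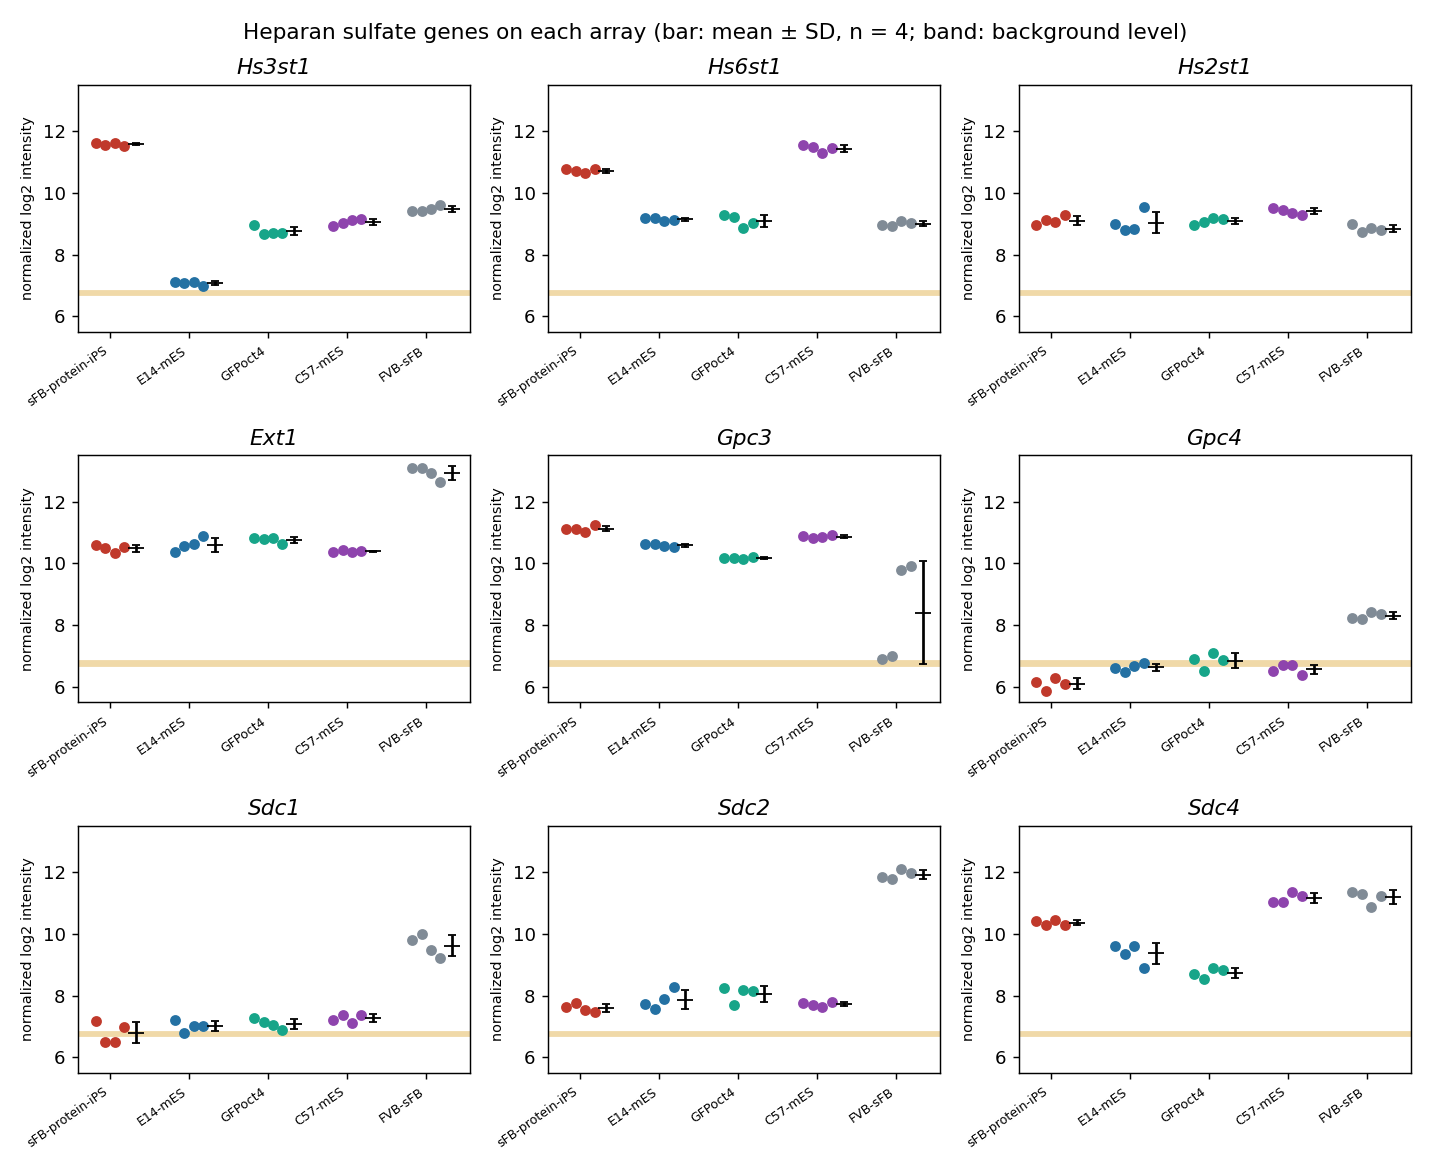
Normalized log2 intensity of the 9 measured genes (vertical axis) on each of the 4 arrays of the 5 groups (horizontal axis), 1 panel per gene. Points are arrays, the black mark beside them is the mean with its SD (n = 4), and the band spans the background levels of the 20 arrays. Hs3st1 lies highest in sFB-protein-iPS (11.53 to 11.61), and the FVB-sFB arrays split for Gpc3 (6.91 and 7.0, then 9.78 and 9.93).

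Among the sulfotransferases, Hs3st1 had the largest span of group means of the 9 genes, 4.51 on the log2 scale. Its product adds the rare 3-O-sulfate that completes the antithrombin-binding site of the chain. On the 4 arrays of sFB-protein-iPS its log2 intensity was 11.61, 11.57, 11.61 and 11.53. It was 7.11, 7.07, 7.12 and 6.97 in E14-mES, 8.96, 8.66, 8.71 and 8.71 in GFPoct4, and 8.92, 9.02, 9.11 and 9.15 in C57-mES. In FVB-sFB it was 9.43, 9.41, 9.49 and 9.60. Every iPS array thus lay above every other array, all FVB-sFB arrays lay above all ES arrays, and every E14-mES array lay below every other array, though above background. GFPoct4 and C57-mES were neighbours in this order, and their arrays overlapped.

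The iPS group was 2.10 ± 0.084 (SE) above FVB-sFB in Hs3st1, a 4.29-fold difference. Against the ES lines one by one, the gap was 4.51 ± 0.084 (22.8-fold) to E14-mES, 2.82 ± 0.084 (7.05-fold) to GFPoct4 and 2.53 ± 0.084 (5.78-fold) to C57-mES. The 3 ES lines together stood at -1.19 ± 0.069 relative to FVB-sFB, so that the iPS cells and the ES lines lay on opposite sides of FVB-sFB. Within the ES lines E14-mES stood at -1.98 ± 0.084 relative to C57-mES and at -1.69 ± 0.084 relative to GFPoct4. On the deposited values without normalization the iPS group was 1.21 above FVB-sFB, while the median of all genes there was -0.41. The summed primitive endoderm markers given above were also higher in the iPS group than in each ES line, and higher still in FVB-sFB. In FVB-sFB, however, Sparc makes up most of the sum, and 5 to 7 of the 10 genes were above background, against 10 in the iPS group. The part of these markers in the Hs3st1 differences was not tested.

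Hs6st1, whose product adds sulfate to the 6-O position of glucosamine, split the ES lines. Its log2 intensity was 10.76, 10.72, 10.64 and 10.77 in sFB-protein-iPS. It was 9.19, 9.17, 9.10 and 9.11 in E14-mES, 9.29, 9.22, 8.85 and 9.03 in GFPoct4, and 11.54, 11.48, 11.28 and 11.46 in C57-mES. FVB-sFB had 8.97, 8.92, 9.10 and 9.02. C57-mES lay highest and the iPS group next, each without overlap with any other group, while E14-mES, GFPoct4 and FVB-sFB followed with neighbours that overlapped.

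Relative to C57-mES, Hs6st1 stood at -2.30 ± 0.092 (4.92-fold lower) in E14-mES and at -2.34 ± 0.092 (5.07-fold lower) in GFPoct4. The iPS cells were 1.58 ± 0.092 above E14-mES and 1.62 ± 0.092 above GFPoct4, and stood at -0.72 ± 0.092 relative to C57-mES. They were also 1.72 ± 0.092 (3.29-fold) above FVB-sFB. The ES mean was 0.89 ± 0.075 above FVB-sFB, with all C57-mES arrays above FVB-sFB, while the ranges of E14-mES and of GFPoct4 each overlapped that of FVB-sFB. The iPS difference from FVB-sFB fell short of a 2-fold change on the deposited values without normalization, at 0.79, and was 1.02 with the mean of both Hs6st1 probes. With that mean the differences from C57-mES were -1.48 for E14-mES and -1.52 for GFPoct4. The second Hs6st1 probe was above background on all 4 arrays of C57-mES, where it averaged 7.24, on 1 array each of sFB-protein-iPS and E14-mES, and on none of GFPoct4 and FVB-sFB.

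Hs2st1, whose product sulfates the 2-O position of iduronic acid, had group means within 0.56 of each other, the smallest span of the 9 genes. Its arrays lay between 8.95 and 9.28 in sFB-protein-iPS, 8.79 and 9.53 in E14-mES, 8.97 and 9.18 in GFPoct4, 9.29 and 9.51 in C57-mES, and 8.73 and 8.98 in FVB-sFB. The iPS group differed from FVB-sFB by 0.26 ± 0.12 and the mean of the ES lines by 0.34 ± 0.10, both with overlapping arrays. The sign of the iPS value depended on the scaling, as it was -0.71 on the deposited values without normalization, where the median of all genes was -0.41.

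**Figure D2:**
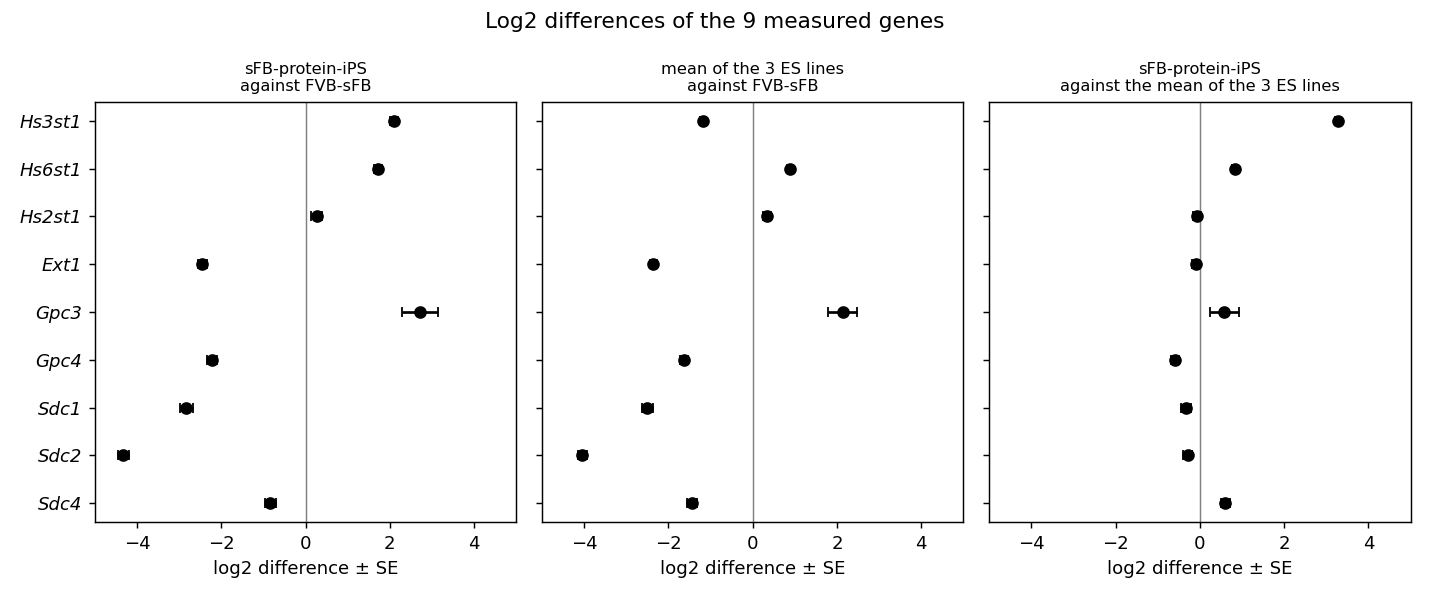
Log2 difference of the 9 measured genes (horizontal axis, bars: SE of the linear model) in 3 comparisons: iPS cells against FVB-sFB (left), the ES mean against FVB-sFB (middle) and iPS cells against the ES mean (right). Sdc2 is lowest in the first panels (-4.33 and -4.04), and Hs3st1 stands at 2.10, -1.19 and 3.29 in the 3 panels.

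The polymerase gene Ext1 was lower in all pluripotent groups than in FVB-sFB. Its product joins that of Ext2 in the complex that builds the backbone of the chain. The log2 intensity was 10.60, 10.50, 10.33 and 10.53 in sFB-protein-iPS. E14-mES had 10.36, 10.55, 10.62 and 10.89, GFPoct4 had 10.83, 10.79, 10.81 and 10.61, and C57-mES had 10.37, 10.42, 10.35 and 10.40. FVB-sFB had 13.10, 13.11, 12.91 and 12.63. The FVB-sFB arrays lay apart from the 16 others, and each pluripotent group overlapped its neighbour in the order of means.

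Relative to FVB-sFB, Ext1 stood at -2.45 ± 0.11 (5.46-fold lower) in the iPS group and at -2.35 ± 0.090 (5.11-fold lower) in the mean of the ES lines. From the ES mean the iPS group differed by -0.09 ± 0.090, with overlapping arrays. On the deposited values without normalization the iPS difference from FVB-sFB was -3.32.

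The 2 glypicans went in opposite directions. Gpc3, which encodes a lipid-anchored proteoglycan whose loss causes the Simpson-Golabi-Behmel overgrowth syndrome in humans, had log2 intensities of 11.11, 11.13, 11.03 and 11.23 in sFB-protein-iPS. It had 10.63, 10.62, 10.57 and 10.54 in E14-mES, 10.18, 10.16, 10.14 and 10.20 in GFPoct4, and 10.89, 10.83, 10.85 and 10.91 in C57-mES. FVB-sFB had 6.91, 7.0, 9.78 and 9.93. No neighbours in the order of means overlapped, with the iPS group highest and FVB-sFB lowest and split.

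Against FVB-sFB, Gpc3 was 2.72 ± 0.42 (6.58-fold) higher in the iPS group and 2.14 ± 0.35 (4.4-fold) higher in the ES mean. These errors carry the spread within FVB-sFB, whose SD was 1.68 for Gpc3, while the SDs of the 8 other genes in that group lay between 0.077 and 0.35. The second Gpc3 probe showed the same split, with 6.72 and 6.64 on FVB-sFB arrays 1 and 2, not above background, and 9.51 and 9.31 on arrays 3 and 4. Over all genes, deviations from the FVB-sFB mean correlated at 0.525 between arrays 1 and 2 and at 0.390 between arrays 3 and 4, and at -0.708 or lower across the 2 pairs. Centring on the mean of 4 arrays by itself lowers such correlations. Of the other members only Hs2st1 had pairs that overlapped. The largest differences of arrays 3 and 4 from arrays 1 and 2 among them were -0.56 in Sdc1 and -0.33 in Ext1. Between the pairs 197 genes, or 1.19% of all, differed at least 2-fold without overlap, and 5 genes differed more than Gpc3 did. With arrays 1 and 2 left out, the iPS group was 1.27 above FVB-sFB and the ES mean 0.69 above it, which is short of a 2-fold change. With arrays 3 and 4 left out the differences were 4.16 and 3.58. The direction was the same in each case, and the size rests on which FVB-sFB arrays are used.

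Among the pluripotent groups the Gpc3 differences were smaller than 2-fold. It was 0.53 ± 0.42 higher in the iPS group than in E14-mES, 0.95 ± 0.42 higher than in GFPoct4 and 0.25 ± 0.42 higher than in C57-mES, where the SE again includes the FVB-sFB spread. The SDs within these 4 groups were 0.026 to 0.083, and none of the groups overlapped on the brighter probe. On the second probe the iPS and C57-mES arrays overlapped.

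**Figure D3:**
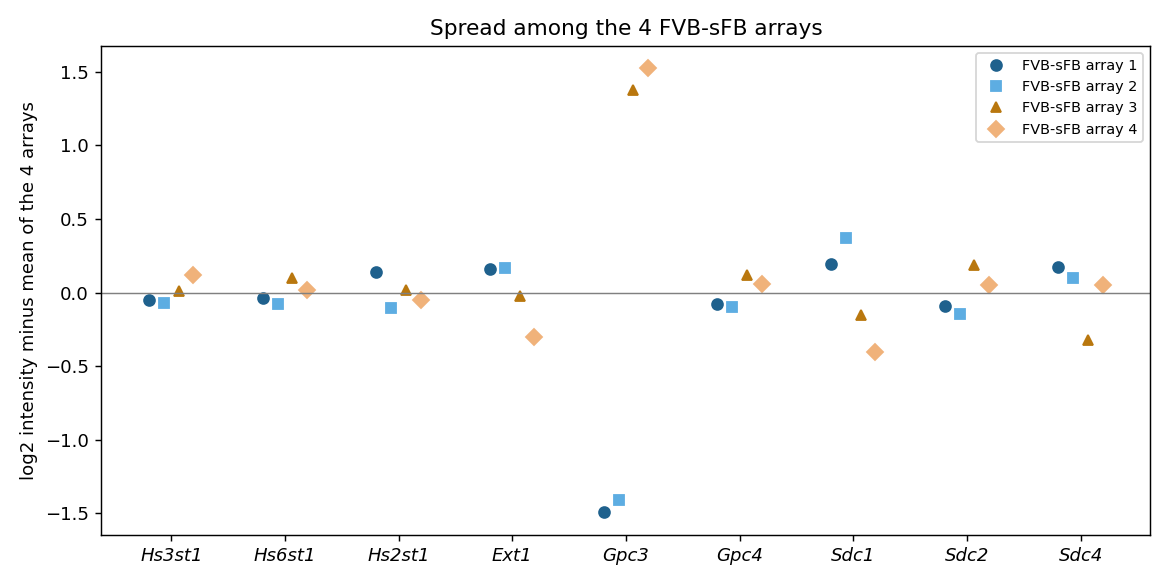
Log2 intensity of the 9 measured genes on each FVB-sFB array minus the mean of the 4 arrays (vertical axis), by gene (horizontal axis), with 1 marker per array. Gpc3 spreads over more than 2 log2 units (SD 1.68), with arrays 1 and 2 low and arrays 3 and 4 high, and no other gene has an SD above 0.35. The 2 pairs of arrays also lie apart, by less, in every other gene but Hs2st1.

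Gpc4, a glypican known from kidney and neural precursor cells, was at or near background in the pluripotent groups. Its log2 intensity was 6.15, 5.85, 6.29 and 6.09 in sFB-protein-iPS, above background on 0 of 4 arrays. E14-mES had 6.61, 6.48, 6.68 and 6.76, GFPoct4 had 6.91, 6.51, 7.08 and 6.86, and C57-mES had 6.51, 6.69, 6.69 and 6.40. FVB-sFB had 8.23, 8.21, 8.43 and 8.37, all above background and above every other array.

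Gpc4 was at least 2.80-fold lower in the iPS group than in FVB-sFB, with a measured difference of -2.22 ± 0.11 that was -1.55 without background correction. The ES mean stood at -1.63 ± 0.093 relative to FVB-sFB, with 4 of the 12 ES arrays above background. Differences among the pluripotent groups lie at the background level and are not described further.

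The syndecans were all lower in the pluripotent groups or level with FVB-sFB. Sdc2, a transmembrane core protein typical of mesenchymal cells, had log2 intensities of 7.63, 7.77, 7.52 and 7.47 in sFB-protein-iPS. It had 7.72, 7.57, 7.90 and 8.29 in E14-mES, 8.26, 7.68, 8.18 and 8.14 in GFPoct4, and 7.74, 7.69, 7.64 and 7.78 in C57-mES. FVB-sFB had 11.83, 11.78, 12.11 and 11.97. The 4 FVB-sFB arrays lay far above the other 16, which overlapped among themselves.

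The differences of Sdc2 from FVB-sFB were the largest of the 9 genes in both comparisons, -4.33 ± 0.13 (20.1-fold) for the iPS group and -4.04 ± 0.11 (16.5-fold) for the mean of the ES lines. Between the iPS group and the mean of the ES lines it was -0.29 ± 0.11, with overlapping arrays. On the deposited values without normalization the iPS difference from FVB-sFB was -5.16.

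Sdc1, a core protein typical of epithelia and plasma cells in the adult, was measured by 3 probes. On the brightest the log2 intensity was 7.18, 6.49, 6.51 and 6.97 in sFB-protein-iPS, above background on 2 of 4 arrays. E14-mES had 7.21, 6.80, 7.0 and 7.01, GFPoct4 had 7.26, 7.15, 7.04 and 6.89, and C57-mES had 7.20, 7.37, 7.11 and 7.37. FVB-sFB had 9.81, 9.99, 9.46 and 9.21. FVB-sFB lay above all 16 other arrays, and the pluripotent groups overlapped.

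Relative to FVB-sFB, Sdc1 stood at -2.83 ± 0.15 (7.11-fold lower) in the iPS group and at -2.50 ± 0.12 (5.66-fold lower) in the ES mean. A second probe gave -3.13 ± 0.15 for the iPS group, where it was above background on 0 of 4 arrays, so the iPS cells were at least 6.01-fold lower. The third probe was near background in all groups and gave -0.37 ± 0.11. With the mean of the 3 probes the differences were -2.11 for the iPS group and -1.78 for the ES lines. On the deposited values without normalization the iPS difference was -3.42.

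Sdc4, a widely expressed syndecan of cell-matrix adhesions, followed another order. Its log2 intensity was 10.41, 10.30, 10.45 and 10.29 in sFB-protein-iPS. It was 9.61, 9.36, 9.61 and 8.88 in E14-mES, 8.69, 8.53, 8.88 and 8.83 in GFPoct4, and 11.04, 11.03, 11.36 and 11.22 in C57-mES. FVB-sFB had 11.37, 11.29, 10.87 and 11.24. C57-mES and FVB-sFB overlapped at the top, the iPS group lay below both, and E14-mES and GFPoct4 overlapped at the bottom. The overlap at the bottom rests on E14-mES array 4 alone, at 8.88, while the other E14-mES arrays lay at 9.36 to 9.61. That array had the highest raw median of all arrays, 178.7.

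Relative to C57-mES, Sdc4 stood at -1.79 ± 0.14 (3.47-fold lower) in E14-mES and at -2.43 ± 0.14 (5.39-fold lower) in GFPoct4. The iPS cells were 0.99 ± 0.14 above E14-mES and 1.63 ± 0.14 above GFPoct4, but stood at -0.80 ± 0.14 relative to C57-mES. Relative to FVB-sFB the ES mean stood at -1.44 ± 0.11, although C57-mES overlapped FVB-sFB. The difference of the iPS group from FVB-sFB was -0.83 ± 0.14, short of a 2-fold change, whereas it was -1.31 with median centring and -1.76 on the deposited values without normalization. The gap of the iPS group to the mean of the ES lines was 0.61 ± 0.11 and shrank to 0.01 on the deposited values. Hs6st1 and Sdc4 were thus the members in which C57-mES lay above both other ES lines by over 2-fold, in comparisons that share the C57-mES arrays.

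The genes most like each member were found from the root mean square (RMS) difference of the 5 group means, each gene centred on its own mean, among 9991 genes above background on all arrays of at least 1 group. For Hs3st1 they were Phlda1 (0.41 on the log2 scale), Gata6 (0.55), a transcription factor of the primitive endoderm, and Hmox1 (0.58), which encodes a heme-degrading enzyme. For Hs6st1 they were Zcchc3 (0.15), Taf15 (0.22) and Vangl1 (0.23), and for Hs2st1 Ccdc18 (0.040), Dnajc11 (0.054) and Ube2k (0.054). For Ext1 they were Hoxb2 (0.031), Nat2 (0.053) and Acot11 (0.057). The nearest gene to Hs3st1 was farther from it than the nearest gene of any other member, for which the distance was 0.031 to 0.19.

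For Gpc3 the nearest genes were Rad9b (0.070), Dusp16 (0.12) and G3bp1 (0.13), and for Gpc4 Map3k14 (0.050), Ece1 (0.074) and Adamtsl4 (0.081). For Sdc1 they were Hic1 (0.063), Bcl2l2 (0.071) and Rassf5 (0.080). For Sdc2 they were Tmem119 (0.080), Tmem204 (0.11) and Itgbl1 (0.11), and for Sdc4 Klhl21 (0.19), Insig1 (0.22) and Htra1 (0.31). These distances rest on 5 group means and describe likeness only.

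A list of 50 other genes of heparan sulfate metabolism, of which 42 were measured, placed the members in their pathway. In sFB-protein-iPS against FVB-sFB 17 of the 42 passed the test as lower and 2 as higher, that is 45.2%, beside 22.9% of all genes. The median log2 difference of the list was -0.31, beside 0.03 over all genes. In the ES mean set against FVB-sFB 18 passed as lower and 2 as higher, 47.6% of the list beside 22.6% of all genes, with a median of -0.57 beside 0.01. The shares of all genes include genes at background in every group. Of the 9991 genes above background on all arrays of at least 1 group, 3798 passed in the iPS comparison and 3736 in the ES comparison. Beside these the excess in the list is smaller, though the list also holds genes at background. The list was also drawn up with earlier results of these arrays known, and both comparisons share the FVB-sFB arrays.

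**Figure D4:**
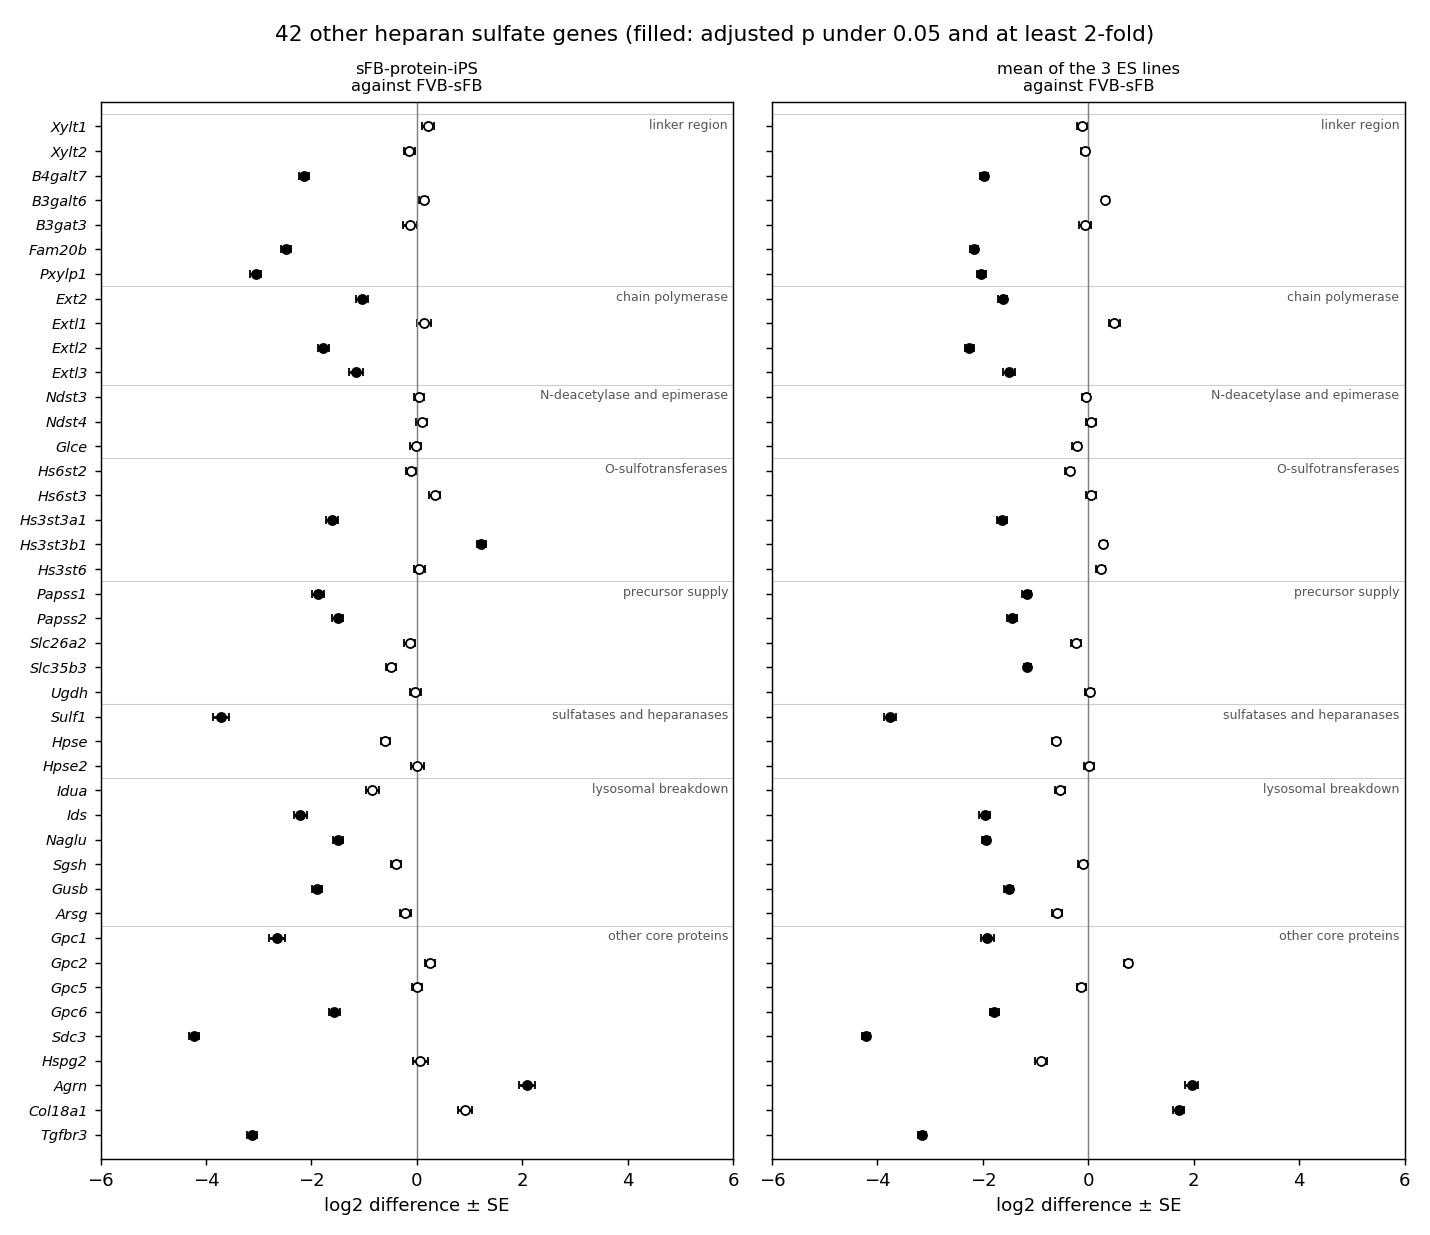
Log2 difference (horizontal axis, bars: SE) of the 42 measured genes of heparan sulfate metabolism other than the members, grouped by role, for sFB-protein-iPS (left) and the mean of the 3 ES lines (right), each against FVB-sFB. Filled points passed an adjusted p under 0.05 and a 2-fold change, 19 on the left and 20 on the right, and most of them lie left of 0, while Agrn lies right of it in both.

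Of the 7 linker genes, whose products join the chain to its core protein, 3 passed as lower in both comparisons, namely B4galt7, Fam20b and Pxylp1. Fam20b encodes the kinase that phosphorylates the linker xylose, and Pxylp1 the phosphatase that removes this phosphate. Fam20b averaged 8.28 in the iPS group and 10.76 in FVB-sFB, a difference of -2.48 ± 0.097 (limma adjusted p = 1.30e-17), and that of the ES mean was -2.17 ± 0.079 (limma adjusted p = 1.99e-18). Pxylp1 differed by -3.05 ± 0.11 between the iPS group and FVB-sFB (limma adjusted p = 9.74e-19). Its 2 other probes gave -0.65 and 0.02 in this comparison, so the change rests on 1 of 3 probes.

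Of 4 further polymerase genes 3 were lower in both comparisons, namely Ext2, Extl2 and Extl3, beside the member Ext1. Ext2 encodes the partner of the Ext1 protein, and the Extl3 product starts the chain on the linker. Of the 3 other Extl3 probes 1 gave -1.12 and 2 gave -0.30 in the iPS group. Extl2 differed by -2.26 ± 0.083 between the ES mean and FVB-sFB (limma adjusted p = 2.65e-18). Of the 3 measured genes for N-sulfation and epimerization other than Ndst1, namely Ndst3, Ndst4 and Glce, 0 passed in either comparison, with an unadjusted p under 0.05 in 0 of the 3 for the iPS group and in 1 for the ES lines. All 3 were above background on no array of any group, so these values do not show whether this step changed.

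The 5 other O-sulfotransferase genes held 1 lower in both comparisons, Hs3st3a1, and 1 higher in the iPS group, Hs3st3b1. Both encode 3-O-sulfotransferases, as Hs3st1 does. Hs3st3b1 averaged 7.60 in the iPS group and 6.37 in FVB-sFB, where it was above background on no array. The iPS cells were thus at least 1.79-fold higher (limma adjusted p = 2.69e-12), a bound short of 2-fold. The measured difference of 1.22 fell to 0.82 without background correction and to 0.47 on the deposited values, where the call was lost. Hs3st3b1 was also above background on all 4 arrays of C57-mES, where it averaged 7.17. Its value is given because it was 1 of 2 increases, a choice made after the values were seen.

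In the supply of activated sulfate, Papss1 and Papss2, which encode the synthases of the sulfate donor, were lower in both comparisons. Papss2 was above background on 0 of 4 iPS and 0 of 12 ES arrays. It was thus at least 1.83-fold lower in the iPS group and at least 1.95-fold lower in the ES mean, bounds short of 2-fold. The gene of a transporter of this donor, Slc35b3, passed as lower in the ES lines, and its difference in the iPS group was -0.49 ± 0.089, short of a 2-fold change. The iPS group was 0.66 ± 0.072 above the mean of the ES lines in this gene (limma adjusted p = 4.36e-08), also short of 2-fold. Of its 2 other probes 1 gave 0.66 as well, while the other gave 0.04 here and -1.11 for the iPS group against FVB-sFB. Of the 3 measured sulfatase and heparanase genes 1 was lower, Sulf1, whose product removes 6-O-sulfate outside the cell. Sulf1 averaged 8.26 in the iPS group and 11.97 in FVB-sFB, a difference of -3.71 ± 0.15 (13.1-fold, limma adjusted p = 1.92e-17), and that of the ES mean was -3.76 ± 0.12 (limma adjusted p = 1.34e-19). Of 6 genes for lysosomal breakdown of the chain 3 were lower in both comparisons, namely Ids, Naglu and Gusb. The 2 other Ids probes gave -0.18 and -0.17 in the iPS group.

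Among 9 other core proteins Gpc1, Gpc6, Sdc3 and Tgfbr3 were lower in both comparisons. Sdc3, the remaining syndecan, averaged 7.25 in the iPS group and 11.48 in FVB-sFB, a difference of -4.23 ± 0.092 (18.7-fold, limma adjusted p = 6.61e-23). The ES mean differed from FVB-sFB by -4.21 ± 0.075 (limma adjusted p = 7.50e-25). Tgfbr3, which encodes betaglycan, differed by -3.13 ± 0.095 in the iPS group (limma adjusted p = 6.47e-20) and by -3.16 ± 0.078 in the ES mean (limma adjusted p = 4.76e-22). Gpc1 differed by -2.66 ± 0.16 in the iPS group (limma adjusted p = 6.80e-14).

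Agrn, which encodes the basement membrane proteoglycan agrin, went the other way. It averaged 13.25 in the iPS group and 11.16 in FVB-sFB, 2.09 ± 0.15 higher (4.26-fold, limma adjusted p = 5.06e-12), and it was 1.96 ± 0.12 higher in the mean of the ES lines (limma adjusted p = 2.36e-13). Col18a1, the gene of the basement membrane collagen XVIII, was 1.71 ± 0.11 higher in the ES mean than in FVB-sFB (limma adjusted p = 2.78e-13), with 1.43 and 0.47 on its 2 other probes. Values of Agrn and Col18a1 are given because increases were few, a choice made after the values were seen.

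Chondroitin sulfate shares its linker with heparan sulfate, and its enzymes gave a comparison. Of 14 measured genes of 16 listed, 6 were lower and 0 higher in sFB-protein-iPS than in FVB-sFB, that is 42.9% beside 22.9% of all genes, and 7 were lower and 0 higher in the mean of the ES lines. As above, the 22.9% includes genes at background in every group. The list median was -0.79 for the iPS group and -0.89 for the ES lines, beside 0.03 and 0.01 over all genes. The 6 genes were Csgalnact1, Chsy1, Chpf, Chst7, Chst11 and Chst12, joined in the ES lines by Chst15. The second Chsy1 probe gave -0.20 in the iPS group and -0.22 in the ES mean, against -1.18 and -1.37 on the probe used, so this call rests on 1 of 2 probes. Csgalnact1, whose product starts the chondroitin chain, averaged 6.12 in the iPS group and 10.08 in FVB-sFB, at least 9.58-fold lower (limma adjusted p = 4.06e-19). Chst12, a 4-O-sulfotransferase gene, differed by -2.52 ± 0.15 between the iPS group and FVB-sFB (limma adjusted p = 1.26e-13). No test between the lists for the 2 chains was made.

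Against the mean of the ES lines, 1 of the 42 heparan sulfate genes passed in the iPS group, or 2.38% beside 3.26% of all genes. At an unadjusted p under 0.05 there were 26 of the 42. The share of all genes at an unadjusted p is not given, so nothing is read from such counts here or below. At a limma adjusted p under 0.05 with no fold limit there were 22, beside 6323 of all 16593 genes. The gene called was Pxylp1, with a difference of -1.02 ± 0.086 (limma adjusted p = 5.30e-10), on the probe named above, while its 2 other probes gave -0.18 and -0.07. None of the 14 chondroitin sulfate genes passed both the limma adjusted p and the 2-fold limit. At an unadjusted p under 0.05 there were 8, and at an adjusted p under 0.05 with no fold limit 6, beside the same 6323 of all genes. The number for heparan sulfate lay between 0 and 4 under the other settings tried. Without E14-mES array 4 the Pxylp1 difference was -0.98 and short of 2-fold, and Hspg2, the gene of the core protein perlecan, passed as higher at 1.04 in its place, against 0.97 with all arrays. Hspg2 is named because it replaced the call, a choice made after the values were seen.

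Between ES lines, 5 of the 42 genes passed in E14-mES against C57-mES, 3 higher and 2 lower, or 11.9% beside 7.19% of all genes. B3galt6, which encodes a galactosyltransferase of the linker, averaged 6.98 in E14-mES and 9.05 in C57-mES, a difference of -2.07 ± 0.085 (limma adjusted p = 5.75e-16). Extl2 differed by -1.10 ± 0.10 (limma adjusted p = 2.29e-09). Sulf1 was 1.89 ± 0.15 higher (limma adjusted p = 1.05e-10), Extl1 1.5 ± 0.13 higher (limma adjusted p = 3.78e-10) and Papss1 1.36 ± 0.11 higher (limma adjusted p = 1.55e-10). In C57-mES Extl1 averaged 6.53 and was above background on 1 of 4 arrays, so the size of its difference depends on the background level. Median centring and the deposited values without normalization each gave 4 higher and 1 lower.

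In GFPoct4 against C57-mES 5 passed, 4 higher and 1 lower, beside 7.69% of all genes. B3galt6 differed by -2.19 ± 0.085 (limma adjusted p = 2.06e-16). Sulf1 was 1.5 ± 0.15 higher (limma adjusted p = 6.24e-09), and Extl1, Extl3 and Papss1 were each 1.18 higher, with SEs of 0.13, 0.14 and 0.11. Without background correction the Extl1 difference was 0.82, and its call was lost. The 3 other Extl3 probes gave 0.18 to 0.66 here, and the second Papss1 probe gave 0.54, while it gave 0.59 in E14-mES against C57-mES. Of the chondroitin genes Chst3 was 1.05 ± 0.10 higher (limma adjusted p = 5.58e-09). In E14-mES against C57-mES 0 of 14 passed both the limma adjusted p and the 2-fold limit. There 4 had an unadjusted and 4 an adjusted p under 0.05, the latter beside 6300 of all 16593 genes. Of the fibroblast list 2 of 10 genes were also higher in GFPoct4 than in C57-mES, and their part in these values was not tested. Between E14-mES and GFPoct4 none of the 42 heparan sulfate genes passed both limits, beside 1.9% of all genes called. At an unadjusted p under 0.05 there were 15. At a limma adjusted p under 0.05 with no fold limit there were 11, beside 3263 of all 16593 genes. Of the 14 chondroitin genes 0 passed both limits, with 5 at an unadjusted and 3 at an adjusted p under 0.05, the latter beside the same 3263.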

How the data were processed

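Total RNA of 20 samples was labelled with biotin and hybridized to Illumina mouse bead arrays. The deposited table of linear probe intensities was exported with BeadStudio, per the submitters' processing notes, whose version is not given in the sources used here. No background correction or normalization is stated. The authors' second table holds log2 values, which equal the log2 of those deposited intensities to within 5e-09. Neither table gives detection p-values, so a correction from negative controls was not run. Of columns with sample values 0 were unused.

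Here, in R 4.3.3 with limma 3.58.1, the intensities were background-corrected by normexp (offset 50), quantile-normalized and put on the log2 scale, and dim probes were kept. The platform annotation gave 1 symbol for 23978 of 25697 probes, several for 0 and none for 1719. For the 4777 genes with several probes that of highest mean was used, giving 16593 genes. The linear model had 1 mean for each of the 5 groups, and its moderated p-values were adjusted by Benjamini-Hochberg across the 16593 genes. Calls needed an adjusted p under 0.05 with at least a 2-fold change. The background level of an array was the 95th percentile of 1305 probes of olfactory and vomeronasal receptors, a set taken over from earlier work that chose it after seeing these data. Between 48.2% and 53.5% of probes lay above it. Folds given as at least a value use, on each array of the dim group, the higher of the probe's signal and this level. The fit was tested on simulated data.

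The members and all lists were chosen with earlier results of these arrays known. Every member was named in each group, and of the lists every called gene, with values for at most the 8 largest changes in a comparison, unless stated. Replicate numbers are not explained by the labels. Of 40 pairs of arrays with one number in different groups, 5 had deviations from the group mean that correlated above 0.1 (range -0.333 to 0.250), so numbers were not taken as pairs. Promoter sequences and gene positions came from RefSeq tables. Alternatives changed the scaling, the background correction, the filter, the probe rule, the replicate block and the arrays used. The number of arrays limits the precision.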

Additional observations from a re-analysis of the deposited data

Results flagged for a closer look

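Of 45 combinations of a measured gene and a group, 1 held an array that lay apart from the 3 others by Dixon's criterion. This was Ext1 on GFPoct4 array 4, with a log2 intensity of 10.61, where the 3 other arrays lay between 10.79 and 10.83. The criterion picks about 1 in 20 groups by chance. The split of FVB-sFB in Gpc3, 2 arrays low and 2 high, is not of a kind this criterion finds.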

How the results depend on the processing

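The 54 differences of the 9 members were recomputed 1512 times. In 1413 cases they moved by less than 1 SD between arrays and in 99 by more, and 0 differences called in the first place changed sign. The replicate block cannot move a difference, and the gene filter only takes genes away. Leaving out an array of a group outside the comparison acts only through the normalization. Many of the 1413 cases are of these kinds, so their number says little about stability. Calls changed for Sdc4 (iPS against FVB-sFB, gained at -1.31 with median centring and -1.76 on the deposited values), Hs6st1 (iPS against FVB-sFB, lost at 0.79 on the deposited values) and Gpc3 (ES lines against FVB-sFB, lost at 0.69 without FVB-sFB arrays 1 and 2), and for no other member. The median of all genes in iPS against FVB-sFB was 0.03 in the setting reported, 0.14 with median centring and -0.41 on the deposited values. The Hs2st1 difference from FVB-sFB in iPS cells turned to -0.71 there. The cause of these moves was not tested.

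Of the counts of called genes, that of the heparan sulfate list in iPS against the ES mean, 1 as reported, was 4 with median centring, 4 on the deposited values, 0 without background correction and 0 with the mean of all probes. It was 1 to 2 when single arrays were left out, with 2 (Pxylp1 lower, Hspg2 higher at 1.02) without sFB-protein-iPS array 3, and without E14-mES array 4 the 1 gene was Hspg2, higher at 1.04, with Pxylp1 lost at -0.98. The same list in GFPoct4 against C57-mES gave 3 with the mean of all probes, against 5. All other counts of both lists stayed within 1.5 times, though the genes called changed. In iPS against FVB-sFB, Ext2 lost its call without FVB-sFB arrays 1 and 2 (-0.98), and Hs3st3b1 without background correction and on the deposited values. With the mean of all probes Extl3 (-0.72) and Ids (-0.85) lost theirs. In the ES mean against FVB-sFB, Papss2 lost its call without background correction (-0.97), and Pxylp1, Extl3 and Ids with the mean of all probes. Extl2, Extl1, Extl3 and Papss1 lost calls between ES lines in at least 1 setting, and other genes gained calls. With the replicate block in the fit, the heparan sulfate list gave 19, 20, 1, 5, 5 and 0 called genes in the 6 comparisons, the numbers found without it. With equal groups the block cannot move a difference, and at most 1 gene past 2-fold missed the adjusted p in any comparison, so these equal counts say nothing about stability. Gpc4 was above background on 0 of 4 iPS arrays, so its fold against FVB-sFB is a bound.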
